A study of Homo sapiens with 6 samples.

Results

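The genes described here are 40 genes of neural cell adhesion and close company, taken by symbol from the 26364 symbols that each count file lists. They were listed with the results of this comparison known, so their differences between the groups are given as a description, without a test of the list. The members are the giant extracellular proteins CSMD1, CSMD2, CSMD3, HMCN1 and LRP1B, the L1, NCAM, SynCAM (CADM), DSCAM and IgLON immunoglobulin families, contactins and contactin-associated proteins, teneurins, neuroligins and neurexins, and LUZP2, KLHL1 and LRRTM4. All 40 symbols are in the files. Messenger RNA was measured in ZR-75-30, an established human breast adenocarcinoma line of epithelial origin, in 3 libraries from cells infected with a lentivirus carrying CDK12 (pLVX-CDK12) and 3 from cells infected with the control lentivirus (pLVX). CDK12 is a kinase of transcription elongation, and by its title the study sought its targets. The labels call the libraries biological replicates but give no time after infection and no separate infections, so p-values rest on the scatter of these libraries, which may be technical.

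Neural adhesion molecules hold the membranes of neighbouring cells together and recognise partners across the gap. Neurexins on the axon bind neuroligins and LRRTM proteins on the dendrite, teneurins bind latrophilins, and contactins pair with contactin-associated proteins along myelinated axons. In L1, NCAM, SynCAM, DSCAM and IgLON proteins, immunoglobulin domains bind the same or a related molecule on the next cell. Many of these genes are very long because of large introns, are active mainly in neurons, and are weakly transcribed in epithelial lines. L1CAM and CADM1 are also known from carcinomas, CADM1 as a tumour suppressor.

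The libraries held 23628890 to 26543653 counts with the CDK12 virus and 21178163 to 25014857 with the control virus. CDK12 itself was at 2124 ± 116 CPM (counts scaled to a common library size with TMM factors) with its virus and 77.9 ± 4.61 CPM with the control virus (SD, n = 3 each), so every library matched its label. By the exact two-sided permutation test p was 0.1, and no smaller p can be had from 3 libraries a group. Of 10 luminal epithelial markers, all passed the filter on low counts, with 14755 to 15187 CPM in sum with the CDK12 virus and 15947 to 16660 CPM with the control virus, and 4 of them were lower and 1 higher. Of 17 neuronal and glial markers, 5 passed the filter. MAP2 was at 23.8 ± 0.97 CPM with the CDK12 virus and 30.5 ± 2.59 CPM with the control virus. SYT1, MBP, GAD1 and SLC17A7 were less abundant than MAP2 in both groups. Their means ran from 0.450 to 6.02 CPM with the CDK12 virus and from 0.395 to 5.25 CPM with the control virus. Among the markers that did not pass were RBFOX3, SNAP25, STMN2, ELAVL3, ELAVL4, SYN1, GFAP, SOX10 and AQP4, and S100B and OLIG2 had no count in any library. The luminal markers are those of the labelled tissue, and the word neural describes where the members are best known.

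The label long holds for most members and not for all. In the GENCODE 29 annotation of GRCh38, the members span 15 to 2305 kb with a median of 586.8 kb, against a median of 31.3 kb for the 13777 tested genes with a span. Of the 40 members, 35 span 100 kb or more. NLGN2 (15 kb), CADM4 (17.5 kb), L1CAM (24.7 kb), NLGN3 (26.4 kb) and CADM3 (31.7 kb) are short. The files were counted on hg19, so spans are used here as lengths only.

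Promoters are shown for LUZP2 and KLHL1, strongly lower members at the ends of the range of CpG content, for CHL1 between them, and for CADM4, which differed little between the groups and was chosen after its values were seen. The RefSeq table of GRCh38.p14 has a window for 29 of the 40 members. Each line gives the 250 bases before the gene's start by that table, 5′ to 3′ on the gene's strand, with CpG dinucleotides in capitals. The bases after the start were found in a GENCODE 29 transcript of LUZP2, CHL1 and KLHL1 but not of CADM4, whose start was thus not checked.
LUZP2 (chr11:24496803-24497052, plus strand): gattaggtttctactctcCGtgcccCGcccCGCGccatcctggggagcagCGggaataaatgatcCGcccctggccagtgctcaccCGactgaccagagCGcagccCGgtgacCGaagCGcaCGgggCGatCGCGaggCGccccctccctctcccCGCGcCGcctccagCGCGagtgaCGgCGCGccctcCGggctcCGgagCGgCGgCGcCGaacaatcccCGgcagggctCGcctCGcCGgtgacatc
CHL1 (chr3:197639-197888, plus strand): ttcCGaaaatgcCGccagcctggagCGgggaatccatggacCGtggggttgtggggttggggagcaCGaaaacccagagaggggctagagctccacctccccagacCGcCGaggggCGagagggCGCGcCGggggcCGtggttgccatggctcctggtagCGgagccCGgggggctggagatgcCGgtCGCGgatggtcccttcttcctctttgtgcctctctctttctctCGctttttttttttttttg
KLHL1 (chr13:70108453-70108702, minus strand): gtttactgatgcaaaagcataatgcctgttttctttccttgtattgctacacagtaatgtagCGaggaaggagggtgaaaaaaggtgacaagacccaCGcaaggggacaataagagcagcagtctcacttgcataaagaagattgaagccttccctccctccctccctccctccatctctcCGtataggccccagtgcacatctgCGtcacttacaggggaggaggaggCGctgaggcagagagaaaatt
CADM4 (chr19:43639851-43640100, minus strand): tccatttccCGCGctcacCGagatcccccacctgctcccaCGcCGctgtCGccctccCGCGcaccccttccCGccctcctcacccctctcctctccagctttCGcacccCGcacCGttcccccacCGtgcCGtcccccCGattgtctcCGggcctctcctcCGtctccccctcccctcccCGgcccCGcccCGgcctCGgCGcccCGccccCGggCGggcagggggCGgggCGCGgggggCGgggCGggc
LUZP2 has 34 CpG dinucleotides in its window, CHL1 18, KLHL1 5 and CADM4 30, and the median over the 27305 windows of the table is 11. Over the 7 members with a window that were at least 4-fold lower, the count ran from 5 to 34 with a median of 18. Over the 12 other tested members with a window it ran from 1 to 40 with a median of 14, so the ranges overlap. The letters GAAA, any 2 bases and GAAA again, the core of the interferon-stimulated response element, were searched on both strands because interferon-stimulated genes were lower in the same libraries. They stand in 1 of the 29 member windows (3.45%), that of TENM2, in 3.07% of all windows and in 6 of 10 windows of interferon-stimulated genes. A match is only a description of the letters.

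Of the 40 members, 25 passed the filter on low counts and 15 did not. By edgeR's quasi-likelihood test with Benjamini-Hochberg adjustment over 14665 genes, 17 of the 25 were lower and 3 higher in the CDK12 libraries, and 5 were not called. Of all genes tested, 35.1% were called, 18.9% lower and 16.2% higher. Of all calls 46.1% were higher with TMM scaling, 59.6% with upper-quartile factors and 61.7% with total counts, which moved the median of all genes by less than 0.1 on the log2 scale. As the members were chosen with this contrast known, nothing is read from their larger share. The median log2 fold change was -1.58 over the 25 members and 0.00 over all genes tested. In 20 of the 25, all 3 CDK12 libraries lay below all 3 control libraries, as they did in 23.6% of all genes, and in 3 they lay above, as in 22.1% of all genes. CNTN1 and CNTN4 were the pair whose groups overlapped. In bulk RNA, fewer cells with a transcript and less transcript per cell cannot be told apart.

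**Figure D1:**
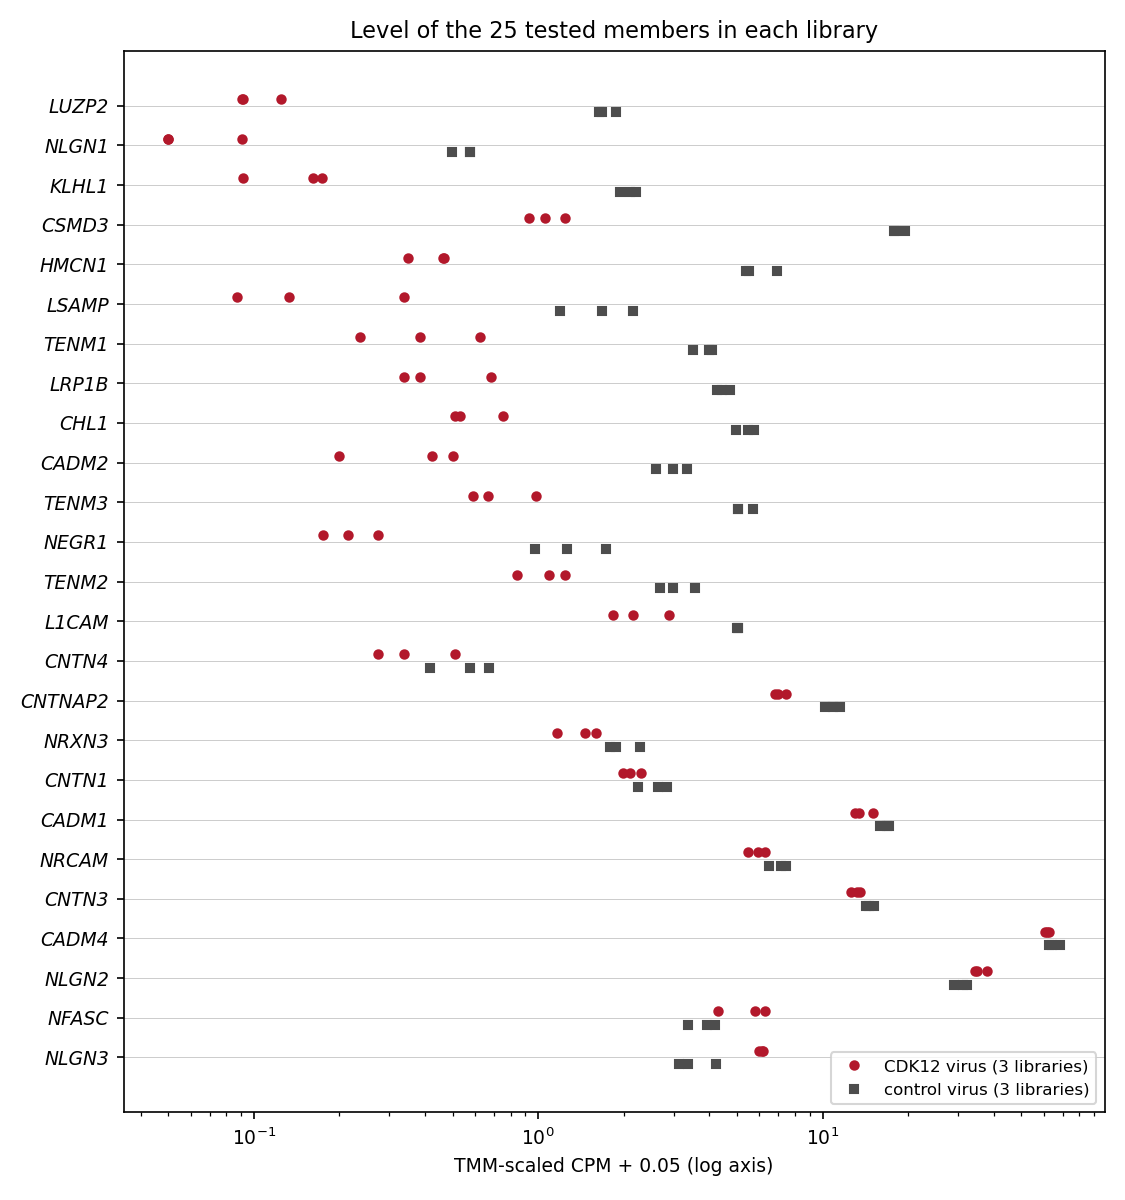
Level of each of the 25 tested members in every library, as TMM-scaled CPM plus 0.05 on a log axis, ordered by fold change, with 3 CDK12 libraries (circles) above 3 control libraries (squares). The upper 12 rows are separated by wide gaps, while the lower rows lie close together or touch.

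The differences fell into steps of unequal size. Of the tested members, 12 were called at least 4-fold lower: CSMD3, HMCN1, LRP1B, CHL1, CADM2, TENM1, TENM3, NLGN1, LSAMP, NEGR1, LUZP2 and KLHL1. The same limit was met by 114 of 14665 genes (0.777%). A further pair, L1CAM and TENM2, was between 2-fold and 4-fold lower, so that 14 members were at least 2-fold lower, as were 1.53% of all genes. CADM1, CNTNAP2 and NRXN3 were called with less than a 2-fold difference. Summed over the 12 strongly lower members, the level was 4.13, 4.90 and 3.63 CPM in the CDK12 libraries and 54.5, 52.9 and 51.9 CPM in the control libraries. Over the other 13 tested members the sum was 153 to 157 CPM with the CDK12 virus and 163 to 167 CPM with the control virus.

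Among the giant extracellular proteins, 3 of 5 were tested and all 3 were strongly lower. CSMD3, a protein of CUB and sushi domains with a part in dendrite growth, had 27, 29 and 21 counts in the CDK12 libraries and 442, 372 and 441 in the control libraries. Its libraries stood far apart, at 1.02 ± 0.16 CPM with the CDK12 virus and 18.4 ± 0.89 CPM with the control virus, a 17.9-fold lower level (log2 fold change -4.16, SE 0.12). HMCN1, an extracellular matrix protein of many immunoglobulin domains, had 8, 10 and 10 counts with the CDK12 virus and 156, 111 and 135 with the control virus (log2 fold change -3.96, SE 0.21). LRP1B, a giant receptor of the LDL receptor family, had 17, 7 and 8 counts with the CDK12 virus and 96, 91 and 115 with the control virus (log2 fold change -3.36, SE 0.22). CSMD1 and CSMD2 were near absence in both groups, with 0 to 3 counts per CDK12 library and 0 to 4 per control library.

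The 4 members of the L1 family, receptors that anchor to ankyrin inside the cell, went in different directions. CHL1, the close homolog of L1, had 13, 17 and 11 counts with the CDK12 virus and 130, 113 and 121 with the control virus (log2 fold change -3.28, SE 0.19). L1CAM, known for promoting migration of tumour cells, had 48, 51 and 68 counts with the CDK12 virus and 114, 103 and 123 with the control virus, or 2.24 ± 0.54 CPM with the CDK12 virus and 4.98 ± 0.04 CPM with the control virus (log2 fold change -1.16, SE 0.15). Scaled for depth, its control libraries were nearly equal and all lay above its CDK12 libraries. NRCAM had 158, 151 and 130 counts with the CDK12 virus and 147, 154 and 175 with the control virus, or 5.84 ± 0.40 CPM with the CDK12 virus and 6.98 ± 0.48 CPM with the control virus, and was not called (log2 fold change -0.26, SE 0.11). NFASC, neurofascin of nodes and axon initial segments, was higher, with 114, 151 and 138 counts with the CDK12 virus and 88, 86 and 82 with the control virus (log2 fold change 0.52, SE 0.14). The lowest CDK12 library of NFASC, at 4.24 CPM, lay just above the highest control library, at 4.13 CPM.

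In the SynCAM family CADM2 was far lower, while CADM1, also over 100 kb long, differed by less. CADM2 had 4, 11 and 9 counts with the CDK12 virus and 75, 61 and 63 with the control virus (log2 fold change -3.17, SE 0.26). CADM1 had 359, 365 and 312 counts with the CDK12 virus and 383, 355 and 391 with the control virus, or 13.8 ± 1.09 CPM with the CDK12 virus and 16.6 ± 0.62 CPM with the control virus (log2 fold change -0.26, SE 0.08). CADM4, which among the members had the most CPM per kb of exon in both groups, had 1678, 1490 and 1447 counts with the CDK12 virus and 1463, 1304 and 1686 with the control virus and was not called (log2 fold change -0.09, SE 0.05). In scaled CPM the CDK12 libraries of all 3 genes lay below the control libraries, by far in CADM2 and narrowly in CADM4. CADM3 had 1 count in all, in a control library. NCAM1, the marker CD56 of neurons and natural killer cells, had at most 1 count per library, and NCAM2 had 5 to 9 counts with the CDK12 virus and 8 to 15 with the control virus.

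The contactins, which lack a cytoplasmic part and sit in the membrane by a lipid anchor, were not called in any of the 3 tested genes. CNTN3 had 353, 328 and 302 counts with the CDK12 virus and 322, 315 and 357 with the control virus and was not called (log2 fold change -0.16, SE 0.08). CNTN1, which works at the nodes of axons, had 52, 50 and 54 counts with the CDK12 virus and 59, 58 and 54 with the control virus, with overlapping groups (log2 fold change -0.27, SE 0.17). CNTN4 had 6 to 11 counts with the CDK12 virus and 9 to 13 with the control virus, too few to narrow its log2 fold change of -0.63 (SE 0.39). CNTN5 had 0 to 4 counts with the CDK12 virus and 1 in each control library. CNTNAP2, which gathers potassium channels beside the nodes of axons and is the longest member, had 186, 179 and 162 counts with the CDK12 virus and 246, 240 and 250 with the control virus, without overlap (log2 fold change -0.62, SE 0.09). CNTNAP3, which has a near-identical copy, and CNTNAP4 had at most 1 count in any library.

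Teneurins, large receptors that cross the synapse, were lower in each of the 3 tested genes. TENM1 had 5, 14 and 8 counts with the CDK12 virus and 90, 84 and 85 with the control virus (log2 fold change -3.38, SE 0.24). TENM3 had 25, 15 and 13 counts with the CDK12 virus and 114, 104 and 139 with the control virus (log2 fold change -2.88, SE 0.18). TENM2 was less far apart, with 28, 29 and 19 counts with the CDK12 virus and 80, 55 and 72 with the control virus (log2 fold change -1.58, SE 0.19). TENM4 had 0 to 4 counts with the CDK12 virus and 6 to 7 with the control virus and was not tested.

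The neuroligins, which face neurexins at the synapse, differed in direction. NLGN1, the long gene of excitatory synapses, had 1 count over the 3 CDK12 libraries and 34 over the 3 control libraries, a ratio of control to CDK12 level of 36.4 (exact 95% counting interval 6.10 to 1478). The short genes were higher. NLGN2, of inhibitory synapses, had 922, 845 and 906 counts with the CDK12 virus and 734, 605 and 770 with the control virus (log2 fold change 0.21, SE 0.06). NLGN3 had 163, 144 and 147 counts with the CDK12 virus and 95, 69 and 76 with the control virus (log2 fold change 0.78, SE 0.13). In both short genes every CDK12 library lay above every control library. NRXN3, a presynaptic neurexin, had 38, 27 and 37 counts with the CDK12 virus and 51, 38 and 43 with the control virus (log2 fold change -0.51, SE 0.20). Its call was lost in 9 of the 14 other fits, by DESeq2's Wald test among them (adjusted p = 0.166), and that of NLGN2 without CDK12 replicate 3 (edgeR quasi-likelihood adjusted p = 0.0668) or control replicate 2 (0.0671). NRXN2 had 0 to 1 count with the CDK12 virus and 1 to 2 with the control virus.

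IgLON proteins, small lipid-anchored adhesion molecules, were strongly lower where they could be tested. LSAMP had 1, 7 and 2 counts with the CDK12 virus and 26, 44 and 40 with the control virus (log2 fold change -3.55, SE 0.40). NEGR1 had 6, 4 and 3 counts with the CDK12 virus and 21, 35 and 30 with the control virus (log2 fold change -2.83, SE 0.36). NTM had no count in the CDK12 libraries and 2, 5 and 5 in the control libraries. It was at least 4.28-fold lower when the CDK12 group is set at the 3 counts that a count of 0 allows. That limit takes the control counts as exact, unlike the counting intervals given for other genes. OPCML had 0 to 2 counts with the CDK12 virus and 0 to 1 with the control virus. DSCAM and DSCAML1, of neuronal self-recognition, had 1 to 7 counts per CDK12 library and 1 to 6 per control library.

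The remaining 3 members, LUZP2, KLHL1 and LRRTM4, were placed in none of the families above. LUZP2, a leucine zipper protein of little known function, had 2, 1 and 1 counts with the CDK12 virus and 36, 34 and 45 with the control virus (log2 fold change -4.85, SE 0.40). KLHL1, a neuronal actin-binding kelch protein, had 3, 3 and 1 counts with the CDK12 virus and 43, 43 and 53 with the control virus (log2 fold change -4.38, SE 0.34). In both genes the groups stood far apart. LRRTM4, a postsynaptic organiser, had 2 counts over the CDK12 libraries and 16 over the control libraries (ratio of control to CDK12 level 8.56, exact 95% counting interval 2.01 to 76.7).

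**Figure D2:**
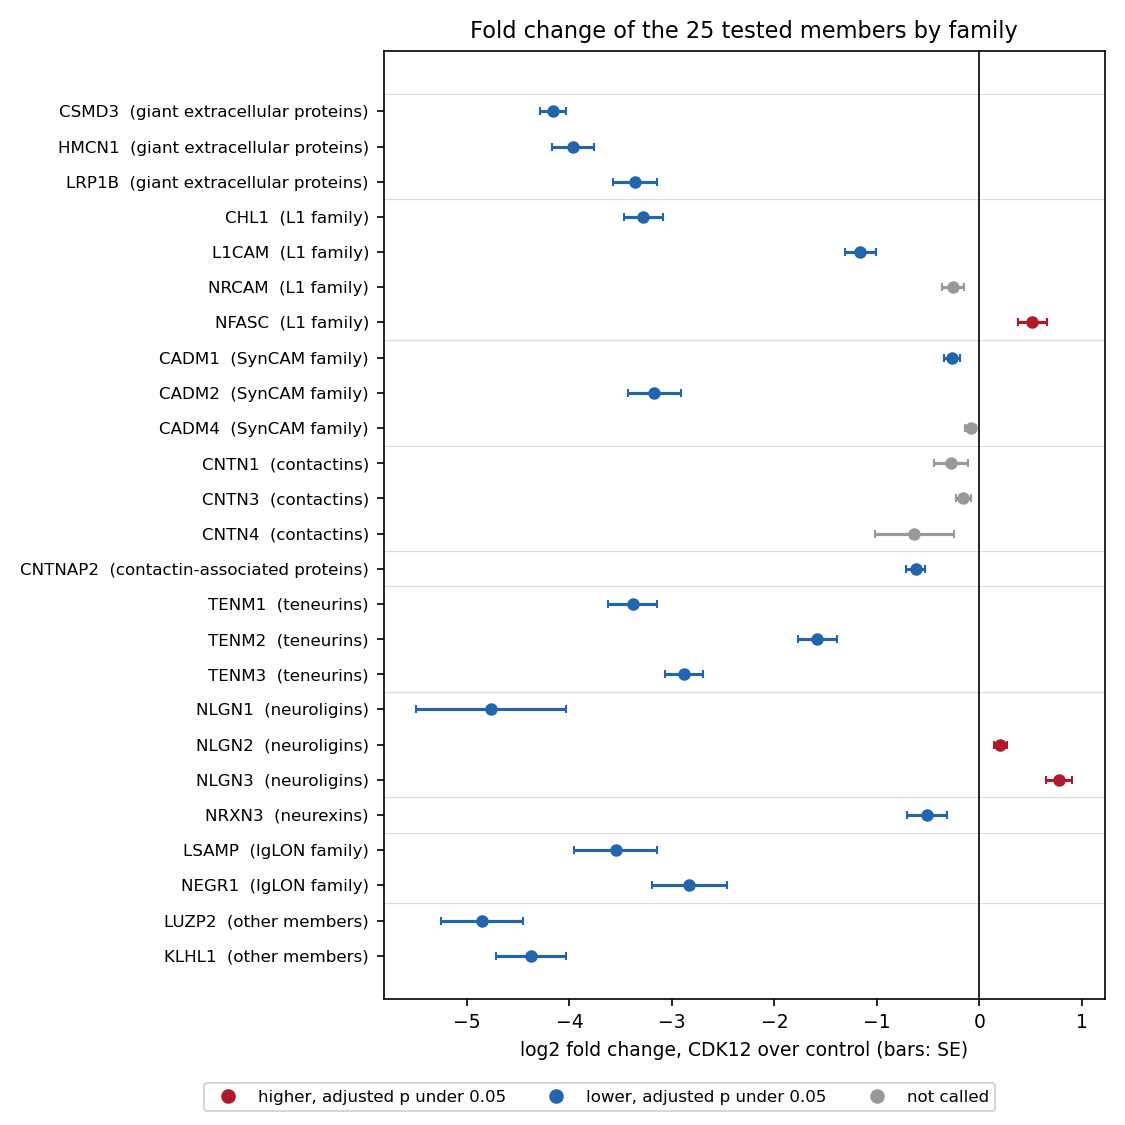
Log2 fold change of CDK12 over control for the 25 tested members, grouped by family, with bars of 1 SE and colours for the call at an adjusted p of 0.05. Members of 1 family lie apart in the L1, SynCAM and neuroligin families, and the 3 tested teneurins all lie at -1.58 or below.

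**Figure D3:**
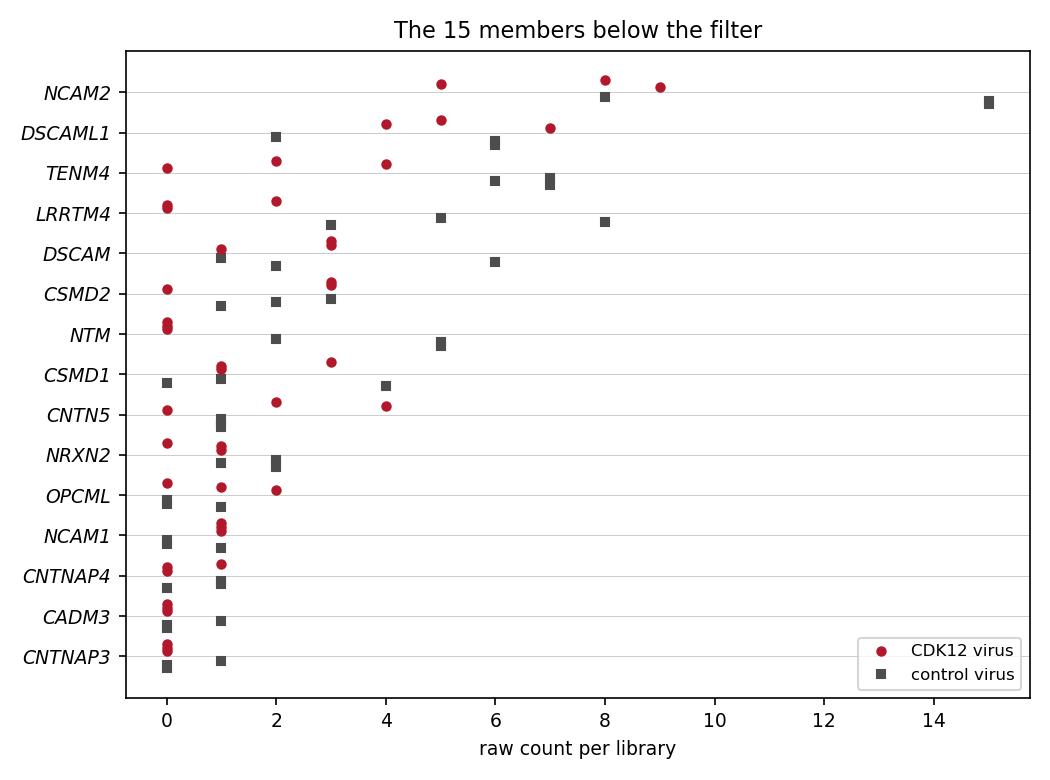
Raw counts of the 15 members below the filter in each library, with 3 CDK12 libraries (circles) above 3 control libraries (squares). No library has more than 15 counts for any of these members, and NTM, LRRTM4 and TENM4 have fewer counts in the CDK12 libraries.

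The 15 members below the filter summed to 30, 27 and 22 counts in the CDK12 libraries and 35, 51 and 48 in the control libraries. At this depth a count of 3, which a count of 0 allows, is 0.113 to 0.127 CPM in the CDK12 libraries and 0.120 to 0.142 CPM in the control libraries. Differences in most of these 15 were not detectable at this depth. Counting intervals and floors cover counting error only.

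Span was set against fold change because it comes from the annotation and not from the libraries. Of the tested members, 4 span 10 to 30 kb, and of these L1CAM was lower, NLGN2 and NLGN3 higher, and CADM4 was not called. Of the 12 tested members of 300 to 1000 kb, 9 were lower and 7 at least 4-fold lower. Of all tested genes of that span, members included, 33.7% were lower and 6.37% at least 4-fold lower. Of the 6 tested members over 1000 kb, all were lower and 4 at least 4-fold lower. Over all tested genes of that span, members included, the shares were 62.2% and 35.6%. Across the 25 members, log2 fold change and log10 span had a Pearson's r of -0.50 and a Spearman's rho of -0.52. Across the 13777 tested genes with a span, r was -0.13 and rho -0.05. Log2 fold change and log2 mean CPM over the 6 libraries had an r of 0.56 and a rho of 0.61 across the 25 members. A fall itself lowers that mean. These are across genes of the same 6 libraries, which are not independent replicates. The members' values only describe the list, as it was chosen with these fold changes known and weak members such as NLGN1, LUZP2 and KLHL1 passed the filter through the control libraries alone.

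**Figure D4:**
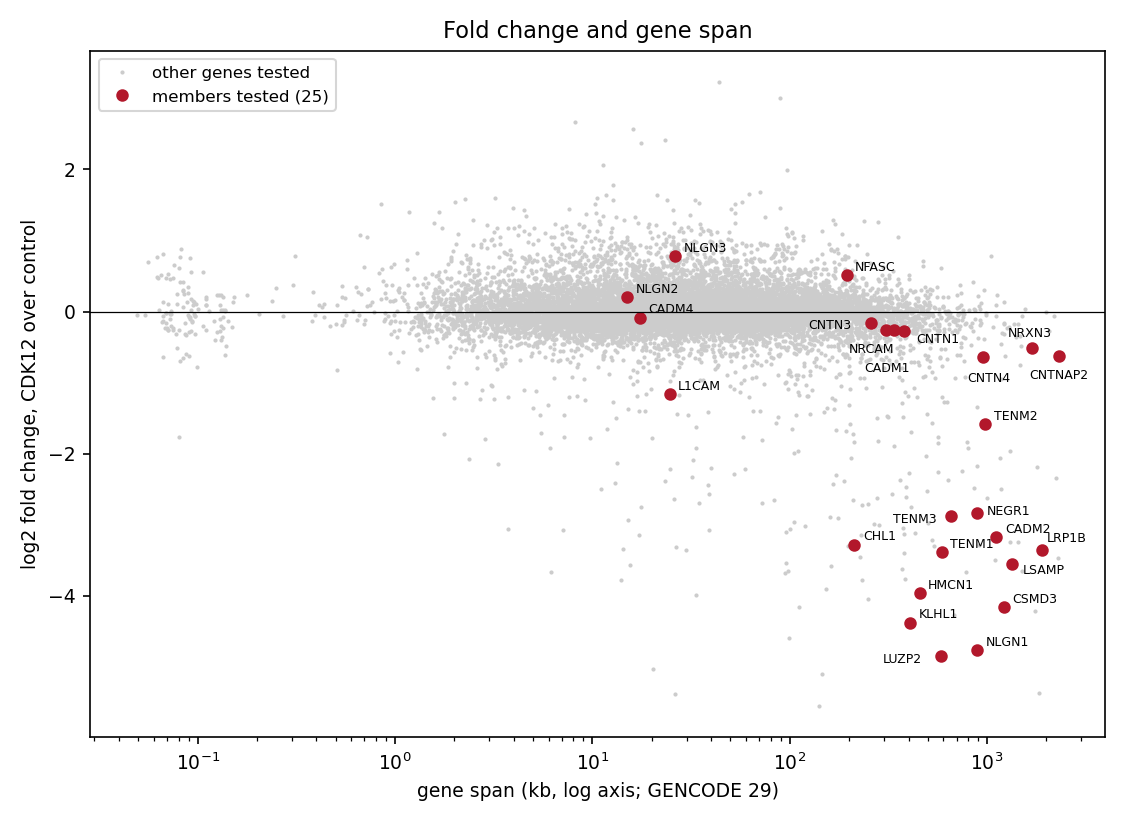
Log2 fold change of CDK12 over control against gene span in kb (log axis) for the tested genes with a span in GENCODE 29, with the 25 tested members named and CDK12 itself not drawn. All 12 members below -2 span 212.8 kb or more, and some other genes of that span also lie below -2.

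Among genes that are not members, the share called lower was higher beyond 300 kb. Called lower were 573 of 2871 genes under 10 kb, 20.3% at 10 to 30 kb, 16.7% at 30 to 100 kb and 19.0% at 100 to 300 kb, with no rise up to that span. It was 32.7% of 490 genes of 300 to 1000 kb and 56.4% of 39 genes over 1000 kb. The median log2 fold change was -0.11 and -0.35 in the 2 longest classes and between -0.01 and 0.02 in the shorter ones. At a mean under 5 CPM over all 6 libraries, 25 of 174 non-members of 300 to 1000 kb (14.4%) and 12 of 25 over 1000 kb (48.0%) were called at least 4-fold lower, against 0 of 316 and 0 of 14 at 5 CPM or more. The split at 5 CPM was chosen after seeing the data, and a fall itself lowers the mean that splits the genes. Some of the strongly lower genes under 5 CPM, such as RBMS3, DMD and GPC6, passed the filter through the control libraries alone. The shares under 5 CPM are thus a description only. Split by the mean of the control libraries alone, also chosen after seeing the data, the counts were 25 of 171 and 12 of 25 under 5 CPM, against 0 of 319 and 0 of 14 at 5 CPM or more. Of the 12 strongly lower members, CSMD3, HMCN1, CHL1 and TENM3 were above 5 CPM in the control libraries.

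**Figure D5:**
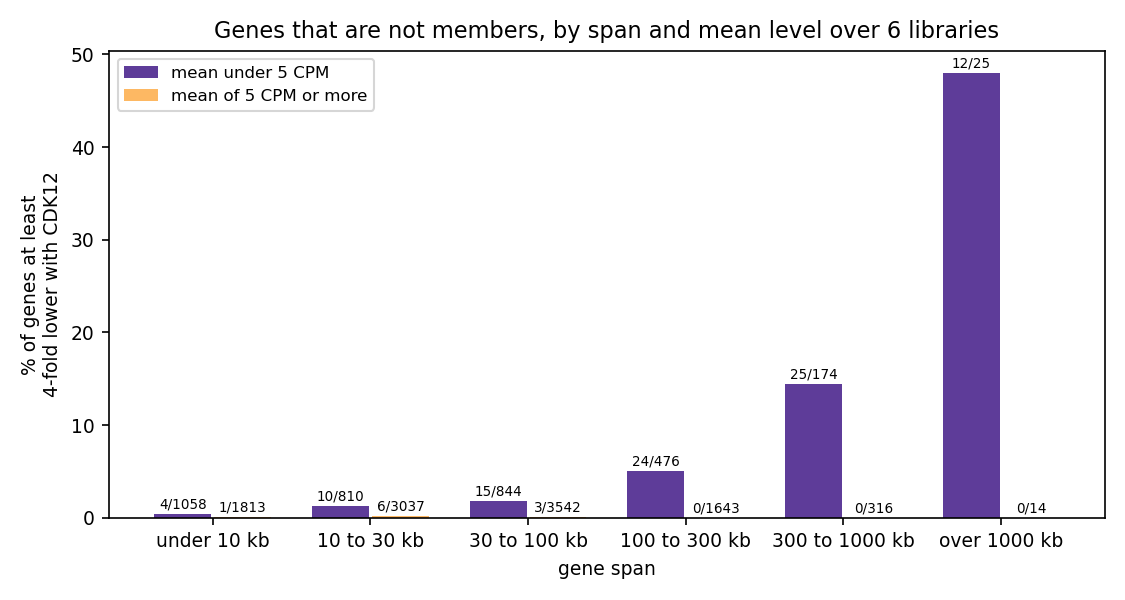
Share of genes called at least 4-fold lower with CDK12, in percent, among genes that are not members, by span and by mean level over all 6 libraries, with the number of genes above each bar. The share climbs with span to 48.0% under 5 CPM and is 0 in the 3 longest classes at 5 CPM or more. Some of the genes under 5 CPM passed the filter through the control libraries alone.

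Genes of the same families that are no members were listed from textbook families. Of 16 relatives, 7 were tested, of which 4 fell and 1 rose, a share of 71.4% called against 35.1% of all genes. NLGN4X and KLHL4 passed the filter through the control libraries alone, so their falls and their part in that share are a description only. NLGN4X was at 0.081 ± 0.043 CPM with the CDK12 virus and 0.510 ± 0.050 CPM with the control virus (log2 fold change -2.61). KLHL4, a relative of KLHL1, had 3 counts over the CDK12 libraries and 46 over the control libraries (ratio of control to CDK12 level 16.4, exact 95% counting interval 5.27 to 82.4). KLHL5 fell to 110 ± 4.67 CPM with the CDK12 virus, against 123 ± 4.16 CPM with the control virus (log2 fold change -0.16). LRP1, an abundant and shorter relative of LRP1B, rose to 48.0 ± 6.42 CPM with the CDK12 virus, against 34.7 ± 3.81 CPM with the control virus (log2 fold change 0.46, SE 0.08, edgeR adjusted p = 3.55e-05). CNTNAP1, the partner of CNTN1, was at 4.68 ± 0.03 CPM with the CDK12 virus and 5.06 ± 0.41 CPM with the control virus. CNTNAP1 was tested and not called, as was LRP2 (log2 fold change -0.36). The other 9 relatives were not tested. CNTN2, CNTN6, CNTNAP5, IGLON5, HMCN2, LRRTM2 and LRRTM3 had 0 to 10 counts per CDK12 library and 0 to 7 per control library, and CNTNAP3B and LRRTM1 had no count in any library.

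Of 35 other synaptic adhesion genes, 20 were tested, 5 fell and 1 rose, a share of 30.0% called against 35.1% of all genes. PTPRD, a receptor phosphatase that binds postsynaptic organisers, had 3, 10 and 3 counts with the CDK12 virus and 59, 44 and 62 with the control virus (log2 fold change -3.47, SE 0.31). PTPRD passed the filter through the control libraries alone, so its fall is a description only. The shorter relative PTPRF fell by 0.12 on the log2 scale at 892 ± 48.4 CPM with the CDK12 virus and 971 ± 37.5 CPM with the control virus. ADGRL2, a latrophilin and thus a teneurin receptor, fell by 0.94 and SLITRK6 fell by 0.39 on the log2 scale, and LRFN3 fell by 0.21. CLSTN3, a calsyntenin, was the 1 gene that rose (log2 fold change 0.15), and its call was lost in 6 of the 14 other fits, by DESeq2's Wald test among them (adjusted p = 0.0816). The median log2 fold change of the 20 was -0.02. With total counts in place of TMM, 3 fell and 2 rose, as LRFN3 and PTPRF lost their calls.

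Of 36 intracellular partners and shedding proteases, 34 were tested, 10 fell and 2 rose, a share of 35.3% called, close to that of all genes. ANK2, the long neuronal ankyrin gene, had 13, 9 and 8 counts with the CDK12 virus and 48, 44 and 40 with the control virus (log2 fold change -2.26, SE 0.26, edgeR adjusted p = 1.01e-07). ANK3, a long gene at 66.7 ± 2.25 CPM with the CDK12 virus and 81.4 ± 4.43 CPM with the control virus, fell by 0.29. The spectrin gene SPTAN1 fell by 0.19 on the log2 scale, and EZR, which links membrane proteins to actin, fell by 0.18. The scaffold gene DLG4 rose by 0.24 and EPB41L1 by 0.14. The median log2 fold change of the 34 was -0.05. With upper-quartile factors or total counts, 6 partners rose, and by DESeq2's Wald test 0 did, so the number of rises depends on the fit.

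Markers of other cells and of the interferon response moved in the same libraries. Of 12 stromal and blood markers, 5 were tested, of which PTPRC, the leukocyte antigen CD45, and COL3A1 fell and COL1A1 rose. PTPRC and COL3A1 passed the filter through the control libraries alone, so their falls are a description only. PTPRC had 10, 10 and 7 counts with the CDK12 virus and 69, 59 and 74 with the control virus (log2 fold change -3.02, SE 0.23). COL3A1 had 1, 3 and 4 counts with the CDK12 virus and 14, 13 and 14 with the control virus. The 12 markers summed to 64.4 to 75.2 CPM with the CDK12 virus and 54.2 to 58.7 CPM with the control virus, and without COL1A1 to 4.01 to 4.41 CPM with the CDK12 virus and 8.28 to 8.83 CPM with the control virus. CD3E, of T cells, had 3 counts over the CDK12 libraries and 3 over the control libraries. The 17 neuronal and glial markers summed to 33.6 to 35.2 CPM with the CDK12 virus and 39.7 to 44.6 CPM with the control virus, and 2 of the 5 tested fell, SYT1 (log2 fold change -0.76) and MAP2 (-0.35). All 12 genes of an interferon-stimulated list fell (median log2 fold change -2.88), and they summed to 233 to 244 CPM with the CDK12 virus and 1036, 666 and 631 CPM in control replicates 1, 2 and 3. The part of these markers in the members' differences was not tested.

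For 11 of the 40 members, among them CSMD3, CHL1, TENM1, TENM3, NEGR1 and KLHL1, GENCODE 29 has a gene on the other strand that shares exonic bases. For TENM1 this is STAG2, a cohesin subunit. The strand setting of the counting is not given in the sources used here, so reads of such partners cannot be told apart from the members' own.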

How the data were processed

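RNA of 6 libraries of ZR-75-30 cells, 3 per virus, was captured by poly(A) and sequenced in pairs from stranded libraries, per the labels' protocols. The values the authors deposited are raw counts for each gene symbol, without normalization. CASAVA 1.8, STAR 2.6.0c and featureCounts of Subread 1.6.2 with the genome build hg19 were used, per the submitters' processing notes. For the annotation, strand and multi-mapping settings, nothing is given in the sources used here.

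Genes were kept with edgeR 4.0.16's filterByExpr (minimum count 10, minimum total count 15), scaled by TMM and compared with the quasi-likelihood F test, group as the only term, all 6 libraries in the fit, two-sided, with Benjamini-Hochberg adjustment over 14665 genes at 0.05. An SE is the log2 fold change divided by the root of F. Levels are TMM-scaled CPM, mean ± SD. Spans and exon lengths came from GENCODE 29 (GRCh38), promoters from RefSeq (GRCh38.p14). The test was checked on simulated counts. The members and lists were chosen with earlier results of these data known. Every member is given, with counts in each library from a mean of 20 counts in the higher group; of the other lists, all relatives and up to 5 called genes per direction with the smallest p. A few genes that this rule or the marker lists would name are not reported here. Alternatives were other scalings and filters, DESeq2 1.42.0, limma-voom (limma 3.58.1), a replicate block and leaving out each library.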

Additional observations from a re-analysis of the deposited data

How the results depend on the processing

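All 17 lower and 3 higher members kept their direction in the 14 alternatives in which they were tested. Of 347 alternative values of tested members, 336 stayed on their side of the threshold and 11 lost a call (NRXN3 and NLGN2). The median log2 fold change of the members was -1.37 with the filter of 1 CPM in 3 libraries and -1.04 with no filter beyond 1 count, where other members are tested. With no filter beyond 1 count, 20 members were called lower, against 17 in the main fit. Leaving out each library gave -1.67 to -1.31. Family relatives had 2 higher with no filter beyond 1 count and 2 lower with the filter of 1 CPM. Other synaptic adhesion genes had 11 lower with no filter and 3 with total counts; 0 were higher by DESeq2's Wald test or with no filter, and 2 with total counts or upper-quartile factors. Without 1 library, 0 to 3 were higher and 5 to 9 lower, with 9 lower without CDK12 replicate 3. Higher partners numbered 0 by DESeq2's Wald test, 6 with total counts or upper-quartile factors, and 0 to 3 without 1 library.

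The medians by span given here are over all genes tested, members included, unlike those of non-members above. In the main fit they were -0.1155 at 300 to 1000 kb and -0.4803 over 1000 kb. With total counts and upper-quartile factors the medians were 0.0310 and 0.0253 under 10 kb, 0.0448 and 0.0391 at 10 to 30 kb, 0.0607 and 0.0551 at 30 to 100 kb, 0.0351 and 0.0296 at 100 to 300 kb, and -0.0732 and -0.0788 at 300 to 1000 kb. Without 1 library they ran from -0.0216 to 0.0097, -0.0057 to 0.0098, 0.0131 to 0.0261, -0.0199 to 0.0013, -0.1388 to -0.0996 and, over 1000 kb, -0.5881 to -0.4014; the reversed ones were 0.0086, 0.0097, -0.0044, -0.0057, -0.0027 and 0.0013. The cause was not tested. Replicate numbers did not pair the libraries (correlations of same-numbered deviations -0.067, 0.060 and 0.035). With the replicate block, 2330 genes were higher and 2776 lower, and 16 members were lower, as NRXN3 lost its call. Depth limits the 15 members below the filter.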

Other observations

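Some genes over 1000 kb that are no members and no neural adhesion genes by role were lower. The genes named here were chosen after their values were seen. RBMS3, DMD and GPC6 passed the filter through the control libraries alone, so they are a description only. RBMS3, an RNA-binding protein, was at 0.241 ± 0.08 CPM with the CDK12 virus and 2.31 ± 0.28 CPM with the control virus (SD, n = 3 each). DMD, the dystrophin gene, was at 0.274 ± 0.12 CPM with the CDK12 virus and 1.42 ± 0.28 CPM with the control virus. GPC6, a glypican, was at 0.357 ± 0.06 CPM with the CDK12 virus and 2.07 ± 0.36 CPM with the control virus. WWOX, at 42.0 ± 2.31 CPM with the CDK12 virus and 39.6 ± 0.91 CPM with the control virus, FHIT (log2 fold change -0.07) and PDE4D (0.04) are of like span and were not called by edgeR's quasi-likelihood test. Of the 39 tested non-members over 1000 kb, 22 were called lower and 1 higher, PTPRN2 (log2 fold change 0.79).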
